A study of Mus musculus with 33 samples.

Results

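The genes described here are those with a retained intron in any of the 4 retained-intron tables of a mouse study of Dmpk CTG repeat expansion, apart from Dmpk itself and a few genes that are not analysed here. Genes were thus chosen by measured values: each table lists only introns selected on a difference in retention between expansion and wild-type libraries. There were 64 such genes of the 376 with any splicing event in the deposited tables, and their 72 retained-intron events, of 549 events in all, fell on 65 distinct introns. Because these values chose the genes, they are given as a description and no test was added.

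RNA was sequenced from tibialis anterior (TA, a leg muscle of mainly fast fibres), from myotubes (multinucleate muscle cells formed in culture) and from choroid plexus (the tissue that secretes cerebrospinal fluid). The mice were of the FVB strain and were Dmpk+/+ (wild type), Dmpk +/480 or Dmpk 480/480, where the 480 allele carries 480 CTG repeats; the labels give neither their age nor a drug treatment. Tables exist for 4 comparisons, in which 480/480 TA, 480/480 myotubes, +/480 myotubes and 480/480 choroid plexus are each set against their own wild type. These use 7 groups of 3 labelled libraries, and the remaining 4 groups (12 libraries) are in no splicing table. By the mouse numbers in the labels, each of the 3 mice of a genotype was the source of a TA, a myotube and a choroid plexus library, so mice are replicates while tissues are not independent. The choroid plexus lists hold values for 2 of 3 labelled 480/480 libraries, and which one is missing is not stated. Library numbers used below give the place in each list and are not tied to a labelled replicate. The tables hold no expression levels, so the tissues could not be checked against their marker genes.

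In myotonic dystrophy, RNA with an expanded CUG repeat binds Muscleblind-like splicing factors in the nucleus and changes the splicing of many other transcripts. Intron retention is the form of alternative splicing in which an intron is left in an otherwise spliced RNA. A retained coding intron usually brings a stop codon into the reading frame, and such RNA is often held in the nucleus or degraded by nonsense-mediated decay (NMD), so that more retention commonly means less protein. Some long noncoding RNAs and host genes of small nucleolar RNAs keep introns as part of their normal processing.

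Retention is given here as the percentage of transcripts across an intron that keep it, with the mean and SD over libraries (n = 3 a group, and n = 2 for 480/480 choroid plexus). Libraries were made from total RNA after removal of ribosomal RNA, so a transcript not yet spliced and one that keeps its intron cannot be told apart. The reads behind each percentage are unknown beyond the authors' minimum of 5 on average, and 51 of the 72 events had at least 1 library at exactly 100%. "Rose" and "fell" refer to events that passed the authors' selection (FDR of 0.05 or less and a change of 10 percentage points or more). The smallest change listed was 10.3 points, in Cyp27a1, and the largest FDR was 0.0471, in Txlng, per the authors' deposited table; introns outside these limits were not analysed here. With 3 libraries against 3 or 2, the smallest p that an exact two-sided permutation test can give is 0.1.

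Retention rose for 42 of the 72 events and fell for 30. In TA, 17 of 27 introns rose (63.0%), where higher inclusion in the expansion libraries made up 56.4% of all TA events other than mutually exclusive exons. In 480/480 myotubes 4 of 11 introns rose (36.4%, against 37.5% of such events), and in +/480 myotubes 8 of 14 did (57.1%, against 51%). In choroid plexus 13 of 20 introns rose (65%), where higher inclusion made up 32.1% of events. Both sets of percentages are shares of events that the authors selected on this contrast, and nothing is read from their difference.

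The median size of change was 26.6 points in TA and 24.7 in choroid plexus, while in 480/480 and +/480 myotubes it was 36.7 and 41.6 points, and the widest was 84.0 points, in Cetn4 of +/480 myotubes. Expansion and wild-type libraries did not overlap for 21 of 27 introns in TA (77.8%), where 71.6% of all TA events were separated in this way. They did not overlap for 5 of 11 in 480/480 myotubes (45.5%, against 89.7% of events) and 10 of 14 in +/480 myotubes (71.4%, against 80.9%). In choroid plexus they did not overlap for 12 of 20 (60%, against 80%). Separation is easier to meet there, with 3 libraries against 2, so these shares are not compared with those of the other tables. The spread was wide: the median SD of an intron was 9.64 points in wild-type and 7.48 in 480/480 TA, and 10.6 and 21.1 points in wild-type and 480/480 myotubes. Leaving out 1 library moved the change by more than 1.5 times for 23 of the 72 events, and these are named below with the library.

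**Figure D1:**
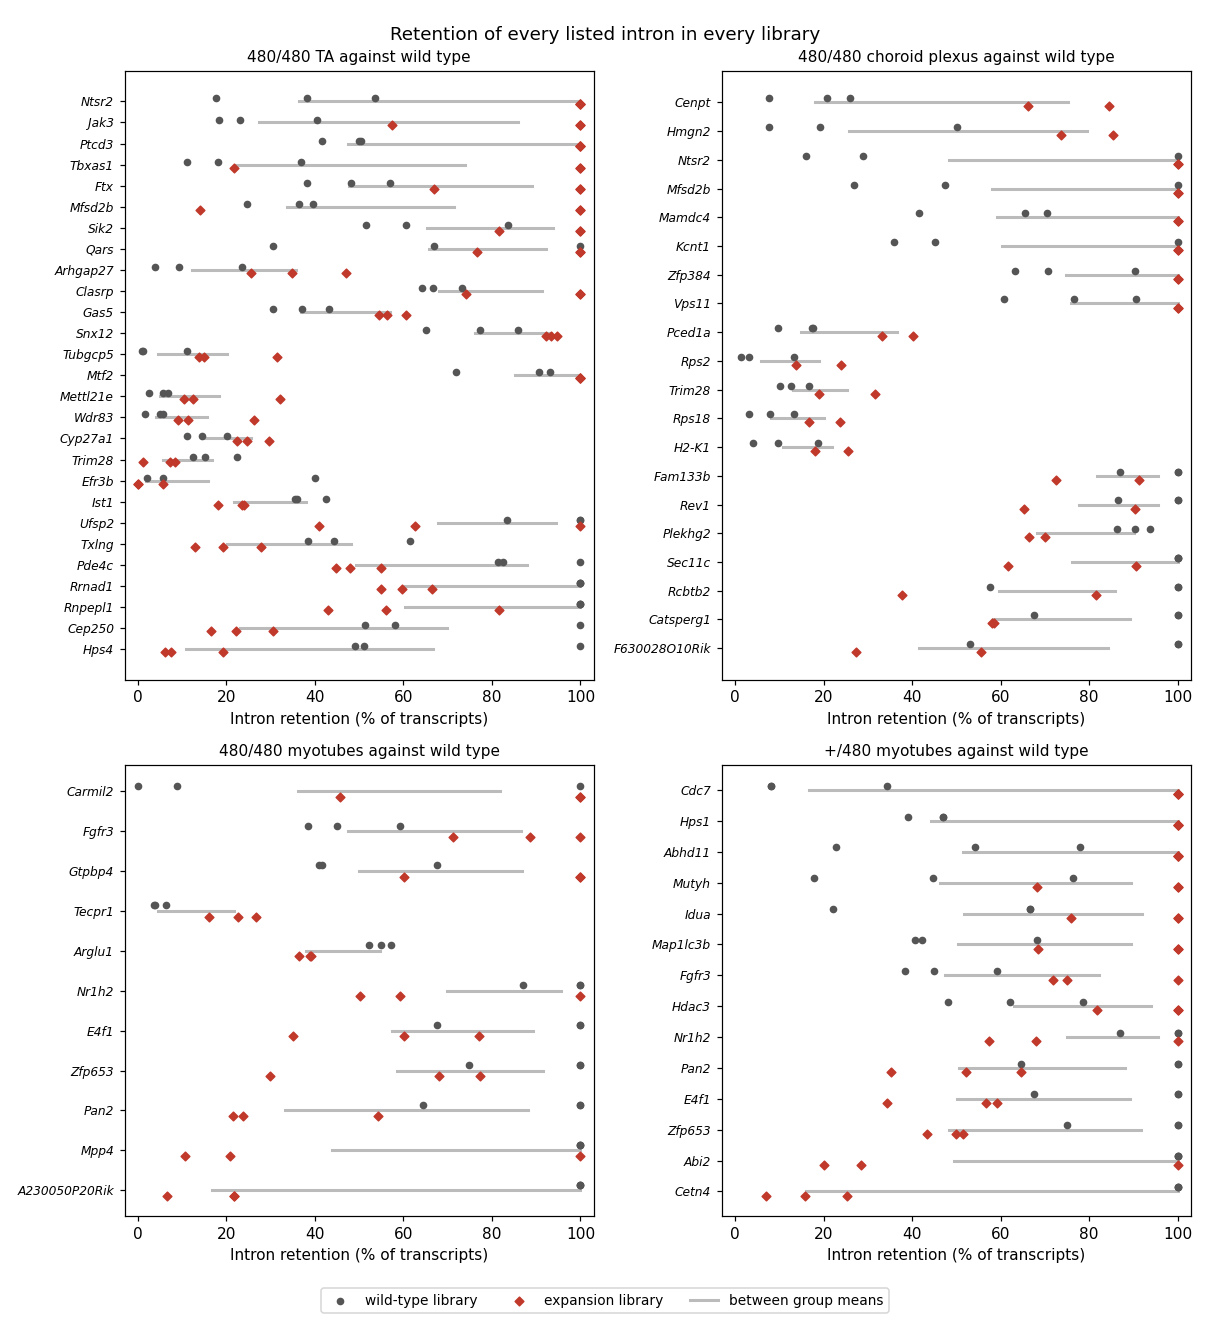
Retention of each intron (horizontal axis, percentage of transcripts) in every wild-type library (grey circles) and expansion library (red diamonds), with a bar between the group means; introns are ordered by their change within each comparison. Retention rose for 17 of 27 introns in TA and 13 of 20 in choroid plexus, and for 4 of 11 and 8 of 14 in 480/480 and +/480 myotubes, and many libraries lie at exactly 100%.

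The introns were described with the GENCODE mouse M21 annotation (GRCm38, the same assembly as mm10). All 65 are annotated as an exon that spans the intron in another transcript of the gene. Of these, 44 lie between coding exons and 1, in Rcbtb2, lies in a 5′ UTR. A further 10 are spliced only in transcripts marked for NMD, 4 only in noncoding transcripts of coding genes (Gtpbp4, Mtf2, Nr1h2 and Zfp384), 3 lie in noncoding genes (Ftx, Gas5 and F630028O10Rik), and 3 have no annotated transcript that splices them (Hdac3, Plekhg2 and Rnpepl1). For 4 introns (in Cetn4, Mtf2, Sik2 and Snx12) a transcript that keeps the intron is itself annotated as protein-coding.

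Wild-type levels were set beside this annotation. Introns spliced in an annotated protein-coding transcript had a median wild-type retention of 47.5% over 51 events on 45 introns, and 15 of these events were under 20%. The other 21 events, on 20 introns, had a median of 76.0%, ranged from 36.9% to 100%, and had none under 20%. The 5 introns in both myotube tables enter these counts in each table with the same wild-type values. In choroid plexus the medians were 25.7% (13 introns) and 90.1% (7 introns), and in TA 33.6% (19 introns) and 66.9% (8 introns). In myotubes the order was the opposite, at 88.2% for 9 introns and 72.8% for 2 in the 480/480 table, and at 69.3% for 10 and 57.4% for 4 in the +/480 table.

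**Figure D2:**
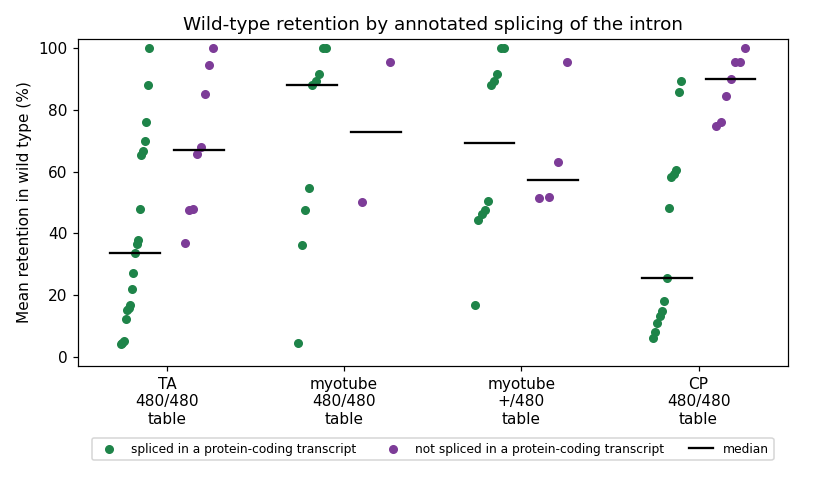
Mean wild-type retention (vertical axis, %) of each listed intron by table, for introns spliced in an annotated protein-coding transcript (green) and for the others (purple), with the median as a line. In choroid plexus the medians are 25.7% and 90.1%, in TA 33.6% and 66.9%, and no purple point lies below 36.9%.

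The median length of the listed introns was 444 bases, beside 294 bases for the 15409 annotated introns that lie within an exon of another transcript of the same gene; 21 of 65 (32.3%, against 17.5%) were over 1000 bases and 14 (21.5%, against 29.0%) were under 150. By table the median was 687 bases in TA, 321 and 422.5 bases in 480/480 and +/480 myotubes, and 334.5 bases in choroid plexus, where 8 of 20 introns (40%) were under 150 bases. In choroid plexus the introns that rose had a median of 143 bases and those that fell 444. In 480/480 and +/480 myotubes the order was the opposite, at 703.5 and 248 bases, and at 692.5 and 205.5 bases; in TA it was 750 and 552.5 bases. For introns kept in under 20% of wild-type transcripts the median length was 178 bases (15 events, 78 to 1162 bases). Between 20% and 80% it was 937 bases (33 events, 83 to 2616 bases), and over 80% it was 385.5 bases (24 events, 80 to 2096 bases). The ranges overlapped widely, and introns listed in 2 tables count in each. Of the 24 events over 80% in wild type 23 fell, and of the 15 under 20% 13 rose, a direction that the ends of the scale limit.

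**Figure D3:**
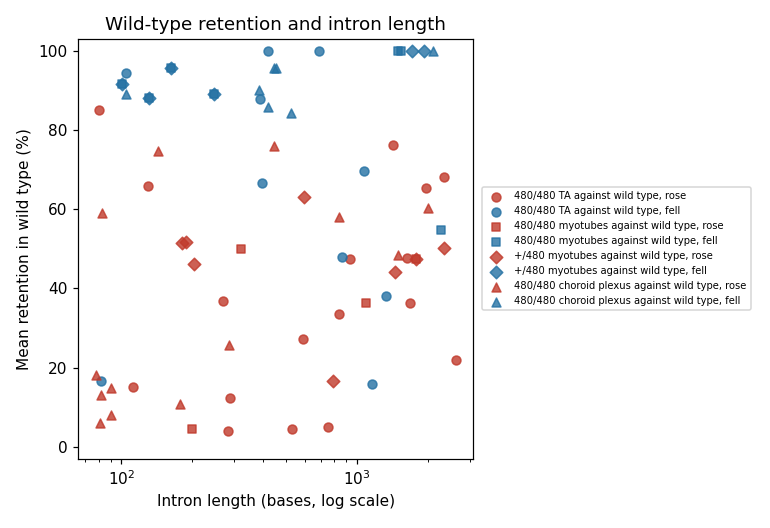
Mean wild-type retention (vertical axis, %) against intron length (horizontal axis, bases, log scale) for all 72 events, with retention that rose in red and that fell in blue, and a symbol for each comparison. Events over 80% in wild type fell in 23 of 24 cases, and a group of introns under 100 bases with retention under 20% comes mostly from choroid plexus.

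Sequence features were close to the background. Of the 65 introns 64 began with GT and ended with AG (98.5%, against 96.2%), and the exception was an intron of Mutyh that begins with GC. The hexamer GTAAGT opened 8 introns (12.3%, against 8.62%). The median GC content was 48.9% (background 50.8%). The tetramers TGCT or TGCC or CGCT or CGCC, to which Muscleblind-like proteins are known to bind, were counted on the strand of the transcript with overlaps allowed. They occurred in 58 of 65 introns (89.2%, against 90.9%) at a median of 1.27 per 100 bases (background 1.31). A stop codon in the reading frame of the upstream exon lay in 39 of the 43 coding introns with a known frame (90.7%, against 86.9%). The introns of H2-K1, Rps2, Tecpr1 and Zfp653 held none, and among them only that of Rps2 has a length that is a multiple of 3. The 4 introns that overlap an exon of another gene, in part or in full, are in Gas5 (the small nucleolar RNA gene Snord78, same strand) and in Carmil2, Cep250 and Sik2 (a gene on the opposite strand). Whether reads from these other genes were counted in the retention values was not tested.

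Listed in 2 tables were 7 introns. Trim28 and Mfsd2b were listed in TA and choroid plexus, and Pan2, E4f1, Zfp653, Nr1h2 and Fgfr3 in both myotube tables. Ntsr2 was listed in TA and choroid plexus as well, with a different upstream exon end, so these are counted as separate introns. The introns of Trim28, Pan2 and Zfp653 are shown whole because they recur and are short. They were read from the annotated transcripts that keep them (GENCODE M21, mm10 reference, while the mice are FVB), 5′ to 3′ on the strand of the transcript. Trim28 is at chr7:13029125-13029206 on the plus strand and Pan2 at chr10:128314317-128314447 on the plus strand, and in both the first in-frame stop codon is in capitals. Zfp653 is at chr9:22057703-22057803 on the minus strand and has its splice-site dinucleotides in capitals. It has no in-frame stop, but its length is not a multiple of 3.
Trim28: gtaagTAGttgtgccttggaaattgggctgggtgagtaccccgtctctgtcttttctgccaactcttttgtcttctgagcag
Pan2: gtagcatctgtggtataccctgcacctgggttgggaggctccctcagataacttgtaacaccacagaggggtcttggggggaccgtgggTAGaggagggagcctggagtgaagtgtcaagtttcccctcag
Zfp653: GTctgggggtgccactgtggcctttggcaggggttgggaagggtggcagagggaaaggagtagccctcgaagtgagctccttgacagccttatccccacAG

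Trim28 encodes KAP1, the corepressor recruited by KRAB zinc finger proteins. Its 82-base intron 10 was kept in 12.4%, 22.3% and 15.2% of transcripts in the wild-type TA libraries and in 8.4%, 7.2% and 1.1% in 480/480 TA. All 3 expansion libraries lay below all 3 wild-type ones, and the mean fell from 16.6% ± 5.10 to 5.57% ± 3.91 (SD, n = 3 each). In choroid plexus the values were 12.6%, 16.7% and 10.1% in wild type and 31.5% and 19% in 480/480. There the expansion libraries lay above the wild-type ones, and the mean rose from 13.1% ± 3.33 (n = 3) to 25.3% ± 8.84 (n = 2). The wild-type levels of the tissues overlapped, while the direction of change was opposite; this difference between tissues was not tested. The rise in choroid plexus was 5.87 points without 480/480 library 1 and 18.4 without library 2, and the fall in TA was 8.23 points without wild-type library 2.

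Mfsd2b, an exporter of sphingosine-1-phosphate from blood cells, kept its 840-base intron 3 (chr12:4869659-4870498, minus strand) in 39.6%, 24.7% and 36.5% of transcripts in wild-type TA and in 14.1%, 100% and 100% in 480/480 TA. In choroid plexus the values were 100%, 26.9% and 47.4% in wild type and 100% in both 480/480 libraries. The mean rose from 33.6% ± 7.86 to 71.4% ± 49.6 in TA and from 58.1% ± 37.7 to 100% ± 0 in choroid plexus, and in both tissues the groups overlapped. The TA change of 37.8 points was 66.4 without 480/480 library 1 and 23.5 without library 2 or 3, and the choroid plexus change of 41.9 points was 26.3 without wild-type library 2. The intron opens with an in-frame stop at its second base.

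Ntsr2 encodes a neurotensin receptor. Its second intron was listed with 2 different 5′ ends and the same 3′ end, 1675 bases long in TA (chr12:16656690-16658364, plus strand) and 1494 bases in choroid plexus (chr12:16656871-16658364). The first 20 bases of each are shown because the 5′ splice site is what differs, with the first dinucleotide in capitals.
Ntsr2 in TA: GTaccatcagcttctgccca
Ntsr2 in choroid plexus: GTtaagtcctctaccacaat

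Retention of the Ntsr2 intron was 53.6%, 38.1% and 17.6% in wild-type TA and 100% in all 3 480/480 TA libraries. The groups did not overlap, the mean rose from 36.4% ± 18.1 to 100% ± 0, and this change of 63.6 points was the widest in TA (FDR 3.06e-06 in the authors' deposited table). In choroid plexus, at the intron with the other 5′ end, it was 16.1%, 28.9% and 100% in wild type and 100% in both 480/480 libraries. The mean rose from 48.3% ± 45.2 to 100% ± 0, and wild-type library 3 lay at the level of the 480/480 libraries. Each value is for its own 5′ splice site, so the levels in the 2 tissues are not compared.

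The 5 introns in both myotube tables share their wild-type libraries, so the directions in these tables are not independent and the values are given side by side. Fgfr3, a fibroblast growth factor receptor, is the member of this group that rose. Its seventh intron (1782 bases, chr5:33730335-33732116, plus strand) was at 59.2%, 38.4% and 45% in wild type, at 100%, 71.2% and 88.5% in 480/480 and at 100%, 71.8% and 74.9% in +/480. Every expansion library lay above every wild-type library, and the mean was 47.5% ± 10.6 in wild type, 86.6% ± 14.5 in 480/480 and 82.2% ± 15.5 in +/480.

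Pan2, the catalytic subunit of a complex that shortens poly(A) tails, fell. Its intron of 131 bases was at 100%, 100% and 64.5% in wild type, at 21.4%, 23.8% and 54.2% in 480/480 and at 64.5%, 35.3% and 52.2% in +/480. The 480/480 libraries lay below all wild-type libraries, while the highest +/480 library equalled the lowest wild-type one. The means were 88.2% ± 20.5, 33.1% ± 18.3 and 50.7% ± 14.7. The 480/480 change was -55.0 points from the means and -76.2 from the medians.

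Zfp653 and E4f1 encode zinc finger proteins that regulate transcription. Zfp653 (intron 4) was at 74.9%, 100% and 100% in wild type, at 29.9%, 77.3% and 68.1% in 480/480 and at 49.9%, 43.4% and 51.6% in +/480, with means of 91.6% ± 14.5, 58.4% ± 25.1 and 48.3% ± 4.33. E4f1 (intron 4, 248 bases, chr17:24446842-24447089, minus strand) was at 100%, 100% and 67.6% in wild type, at 60.1%, 35.1% and 77.1% in 480/480 and at 59.2%, 56.8% and 34.3% in +/480, with means of 89.2% ± 18.7, 57.4% ± 21.1 and 50.1% ± 13.7. In both genes the +/480 libraries lay below all wild-type libraries and the 480/480 libraries overlapped them. In 480/480 the Zfp653 fall of 33.2 points was 18.9 without 480/480 library 1, and the E4f1 fall of 31.8 points was 20.6 without library 2.

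Nr1h2 encodes the oxysterol receptor LXR-beta. Its 163-base intron (chr7:44552344-44552506, minus strand), spliced only in a noncoding transcript, was at 100%, 86.9% and 100% in wild type, at 59.2%, 50.2% and 100% in 480/480 and at 57.3%, 68% and 100% in +/480. Both expansion groups held a library at 100% and overlapped wild type. The mean of 95.6% ± 7.56 fell to 69.8% ± 26.5 in 480/480 and 75.1% ± 22.2 in +/480. The 480/480 fall of 25.8 points was 16 points without 480/480 library 2 and 40.9 without library 3, and the +/480 fall of 20.5 points was 11.6 without +/480 library 1 and 33.0 without library 3.

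**Figure D4:**
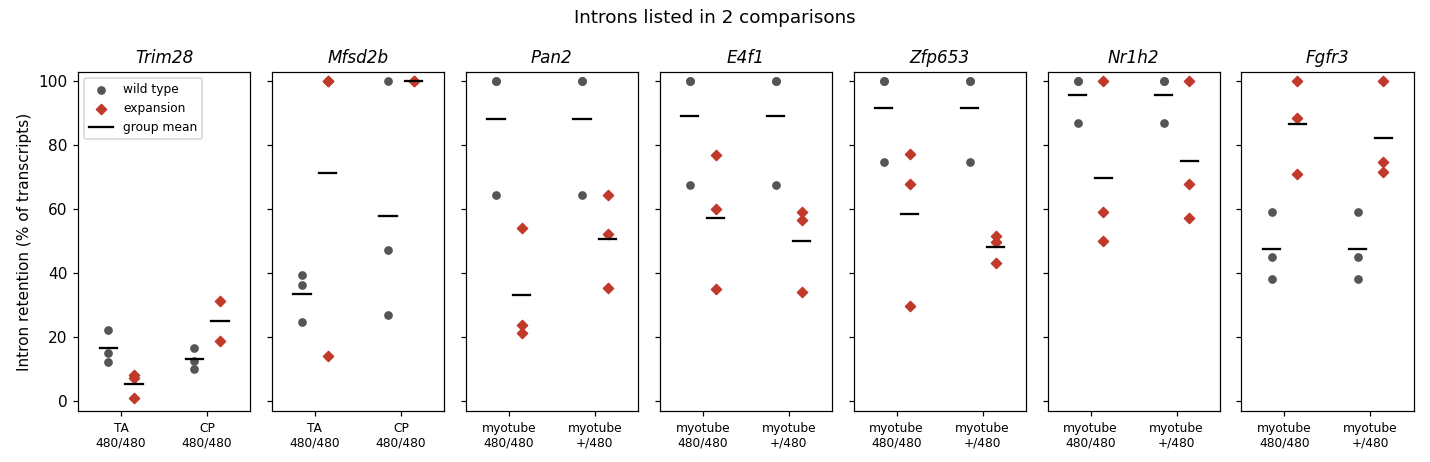
Retention (vertical axis, percentage of transcripts) of the 7 introns listed in 2 tables, in wild-type libraries (grey circles) and expansion libraries (red diamonds), with group means as lines. Trim28 was lower in 480/480 TA and higher in 480/480 choroid plexus, and the 5 myotube introns are plotted against the same wild-type libraries in both comparisons.

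After Ntsr2, the widest change in TA was in Jak3. Jak3, the tyrosine kinase of receptors with the common gamma chain, kept its sixth intron (590 bases, chr8:71679845-71680434, plus strand) in 23.1%, 18.4% and 40.4% of wild-type transcripts and in 100%, 57.5% and 100% of 480/480 transcripts. The groups did not overlap and the mean rose from 27.3% ± 11.6 to 85.8% ± 24.5. Tbxas1, thromboxane A synthase, was at 36.9%, 11.1% and 18.2% in wild type and at 21.8%, 100% and 100% in 480/480 at the longest intron listed (2616 bases, chr6:39081077-39083692, plus strand). Here 480/480 library 1 lay within the wild-type range, and the change of 51.9 points, from 22.1% ± 13.3 to 73.9% ± 45.1, was 77.9 without it.

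Sik2, a salt-inducible kinase, rose in TA from 65.3% ± 16.6 to 93.8% ± 10.7. Arhgap27 rose from 12.3% ± 10.2 to 35.8% ± 10.8. Pde4c, a phosphodiesterase that breaks down cyclic AMP, fell from 87.9% ± 10.5 to 49.2% ± 5.22. The Sik2 libraries overlapped, and those of Arhgap27 and Pde4c did not.

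Genes of membrane traffic were also listed in TA. Hps4 encodes a subunit of BLOC-3, a complex that activates Rab proteins on the way to lysosome-related organelles. Its intron 10 (394 bases, chr5:112369552-112369945, plus strand) was at 49%, 51% and 100% in wild type and at 19.3%, 7.4% and 6% in 480/480, so that the groups did not overlap and the mean fell from 66.7% ± 28.9 to 10.9% ± 7.31. Ist1, which acts with the ESCRT-III membrane-cutting machinery, had a small spread: 36%, 42.5% and 35.5% in wild type and 23.9%, 23.4% and 18.1% in 480/480 (1333 bases, chr8:109675425-109676757, minus strand). Its groups did not overlap and its mean fell from 38% ± 3.91 to 21.8% ± 3.21.

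Snx12, an endosomal sorting nexin, rose from 76.1% ± 10.5 to 93.4% ± 1.35 without overlap. Efr3b, a membrane anchor of a phosphatidylinositol kinase complex, fell from 15.9% ± 21 to 1.90% ± 3.29. Wild-type library 2 was at 40% and the other libraries of both genotypes at 5.7% or less, and the Efr3b change of 14 points was 1.95 without that library.

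The centrosome was represented by Cep250 and Tubgcp5. Cep250, a linker protein that holds centrosomes together, was at 51.3%, 100% and 58% in wild type and at 16.5%, 30.5% and 22.2% in 480/480 at intron 26 (1066 bases, chr2:155988433-155989498, plus strand). All 480/480 libraries lay below wild type and the mean fell from 69.8% ± 26.4 to 23.1% ± 7.04. Tubgcp5, a subunit of the gamma-tubulin ring complex, rose from 4.43% ± 5.77 to 20.03% ± 9.86, and this change of 15.6 points was 9.92 without 480/480 library 2. Txlng, a taxilin-family protein, fell from 48.0% ± 11.9 to 20.1% ± 7.48 with no overlap.

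Genes of RNA processing, translation and protein modification were listed in TA too. Ptcd3, a protein of the mitochondrial small ribosomal subunit, was at 50.5%, 41.7% and 50% in wild type and at 100% in all 3 480/480 libraries (937 bases, chr6:71883603-71884539, minus strand). The groups were far apart beside their spread (47.4% ± 4.94 and 100% ± 0), and the authors' deposited table gives an FDR of 8.87e-06. The intron is spliced only in a transcript marked for NMD.

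Qars, glutaminyl-tRNA synthetase, rose from 65.8% ± 34.8 to 92.2% ± 13.5. Its 3 wild-type libraries were spread over 100%, 66.8% and 30.5%, and the change of 26.5 points was 8.83 without library 3 and 43.6 without library 1. Ufsp2, the protease that matures the ubiquitin-like protein UFM1, fell from 94.4% ± 9.64 to 67.8% ± 29.9, and its change of 26.6 points was 13.2 without 480/480 library 1 and 42.7 without library 3. Rrnad1 fell from 100% ± 0 to 60.3% ± 5.78, and Rnpepl1, an aminopeptidase-like gene, from 100% ± 0 to 60.2% ± 19.6; neither overlapped.

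Clasrp, an SR-related protein that binds the splicing-factor kinase CLK4, rose from 68.0% ± 4.72 to 91.4% ± 14.9. Wdr83, a WD-repeat scaffold protein, rose from 4.10% ± 2.19 to 15.6% ± 9.34, and its change of 11.5 points was 6.15 without 480/480 library 2. Mtf2, an accessory protein of the Polycomb repressive complex PRC2, rose from 85.2% ± 11.6 to 100% ± 0, and its change of 14.8 points was 8.15 without wild-type library 2. The libraries of these 3 genes did not overlap. The lowest 480/480 library of Clasrp, at 74.2%, lay just above its highest wild-type library, at 73.3%.

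Of the noncoding genes, Ftx, a long noncoding RNA of the X-inactivation centre, rose at its last intron from 47.8% ± 9.40 to 89% ± 19.1. Gas5, a host of small nucleolar RNAs, rose from 36.9% ± 6.25 to 57.1% ± 3.19 at an intron that contains Snord78. Neither overlapped. Whether reads from Snord78 were counted in the Gas5 value was not tested.

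The remaining TA genes had low retention. Cyp27a1, the sterol 27-hydroxylase of bile acid synthesis, was at 20.1%, 11% and 14.5% in wild type and at 22.3%, 24.7% and 29.5% in 480/480 (112 bases, chr1:74735752-74735863, plus strand). The groups came close without overlapping, with means of 15.2% ± 4.59 and 25.5% ± 3.67, and the change of 10.3 points was 8.20 without wild-type library 2. Mettl21e, a methyltransferase-like gene, rose from 5.03% ± 2.18 to 18.3% ± 12, and its change of 13.2 points was 6.32 without 480/480 library 1, which was at 32.1%.

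In 480/480 myotubes the widest change was in A230050P20Rik, a gene that the table names RP23-349D13.3. Its 1543-base intron 3 (chr9:20869654-20871196, plus strand) was at 100% in all 3 wild-type libraries and at 21.8%, 21.8% and 6.5% in 480/480. The mean fell from 100% ± 0 to 16.7% ± 8.83, with an FDR of 1.76e-06 in the authors' deposited table. Mpp4, a membrane-associated scaffold protein, was also at 100% in all wild-type libraries and at 100%, 10.7% and 20.8% in 480/480 (1491 bases, chr1:59144851-59146341, minus strand). Its mean fell to 43.8% ± 48.9, and 480/480 library 1 did not differ from wild type.

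The 480/480 myotube list included regulators of the cytoskeleton, ribosome and autophagy. Carmil2, a regulator of actin capping protein that the table names Rltpr, had wide spread: 0%, 8.8% and 100% in wild type and 100%, 100% and 45.6% in 480/480 (1086 bases, chr8:105695775-105696860, plus strand). The groups overlapped, and the change of 45.6 points, from 36.3% ± 55.4 to 81.9% ± 31.4, was 27.5 without wild-type library 1 and 77.5 without library 3. Gtpbp4, a nucleolar GTPase of large ribosomal subunit assembly, was at 67.6%, 41% and 41.5% in wild type and at 60.2%, 100% and 100% in 480/480 (321 bases, chr13:8984888-8985208, minus strand). Its mean rose from 50.0% ± 15.2 to 86.7% ± 23.0 with overlap.

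The most even values were those of Arglu1 and Tecpr1. Arglu1, a nuclear protein that takes part in splicing and in transcription by nuclear receptors, was at 57.1%, 55% and 52.2% in wild type and at 38.8%, 36.4% and 39% in 480/480 (2280 bases, chr8:8681468-8683747, minus strand). Its mean fell from 54.8% ± 2.46 to 38.1% ± 1.45, a difference far above the spread of either group. Tecpr1, which tethers autophagosomes to lysosomes, rose from 4.63% ± 1.54 to 21.7% ± 5.39 without overlap.

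In +/480 myotubes the list held regulators of cell division and the cytoskeleton. Cdc7, the kinase that starts DNA replication with its partner Dbf4, was at 8%, 8% and 34.3% in wild type and at 100% in all 3 +/480 libraries (788 bases, chr5:106974697-106975484, plus strand). The mean rose from 16.8% ± 15.2 to 100% ± 0, with an FDR of 1.05e-07 in the authors' deposited table. Cetn4, a centrin of centrioles and cilia, was at 100% in all wild-type libraries and at 7%, 15.8% and 25.3% in +/480 (1917 bases, chr3:37310440-37312356, minus strand). Its mean fell to 16% ± 9.15. Abi2, a subunit of the WAVE complex that drives actin branching, was at 100% in all wild-type libraries and at 100%, 28.5% and 20.1% in +/480 (1709 bases, chr1:60437233-60438941, plus strand). One +/480 library of Abi2 thus equalled wild type, and the mean was 49.5% ± 43.9.

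Of the gene lists examined, these 3 genes were the only entries with a listed intron: Cdc7 of 35 cell cycle and DNA replication or repair genes, Cetn4 of 39 centrosome and cilium genes and Abi2 of 37 actin genes. None of 60 splicing factors, 40 splice targets of myotonic dystrophy muscle, 35 choroid plexus epithelium genes or 30 mitochondrial genes had one. The lists are short and do not cover their classes: Cep250, Tubgcp5, Arglu1, Clasrp, Ptcd3 and Abhd11, described here, are in none of them. Since the tables hold selected events, the share over all genes tested is unknown and nothing is read from these counts.

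Genes of lysosomes and mitochondria were listed in +/480 myotubes as well. Hps1, the partner of Hps4 in BLOC-3, was at 46.9%, 39% and 46.9% in wild type and at 100% in all 3 +/480 libraries (1452 bases, chr19:42756341-42757792, minus strand). Its mean rose from 44.3% ± 4.56 to 100% ± 0. The direction was the opposite of that of Hps4 in 480/480 TA, and each gene was listed in that table only. Abhd11, a mitochondrial hydrolase, was at 54.1%, 77.9% and 22.7% in wild type and at 100% in all 3 +/480 libraries (180 bases, chr5:135011061-135011240, plus strand). Its mean rose from 51.6% ± 27.7.

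The remaining +/480 introns rose. Idua, the lysosomal alpha-L-iduronidase, rose from 51.8% ± 25.6 to 91.9% ± 14, and this change of 40.1 points was 25.3 without wild-type library 3. Map1lc3b, the autophagosome protein LC3B, rose from 50.3% ± 15.5 to 89.5% ± 18.2, a change of 39.2 points from the means and 57.8 from the medians. Its lowest +/480 library, at 68.5%, lay just above its highest wild-type library, at 68.2%. Hdac3, a histone deacetylase of nuclear corepressor complexes, rose from 63.0% ± 15.2 to 93.9% ± 10.6 without overlap.

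Mutyh, a DNA glycosylase that removes adenine opposite oxidised guanine, rose from 46.3% ± 29.3 to 89.4% ± 18.3 with overlap. Its intron (203 bases, chr4:116818038-116818240, plus strand) was the only one that did not begin with GT, and its first and last 20 bases are shown with the splice-site dinucleotides in capitals.
Mutyh start: GCaccacctttgttgtcttt
Mutyh end: tccacctccatctttgctAG

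In choroid plexus, the introns that rose included a group of very short ones. Whole sequences of 5 of these, of at most 90 bases and between coding exons, are shown with their first in-frame stop in capitals; Rps2 has no such stop, has a length that is a multiple of 3, and has its splice-site dinucleotides in capitals. Cenpt is at chr8:105844996-105845073 (minus strand), Mamdc4 at chr2:25568547-25568629 (minus strand), Pced1a at chr2:130422376-130422465 (minus strand), Rps18 at chr17:33952313-33952402 (minus strand) and Rps2 at chr17:24720453-24720533 (plus strand), all on mm10.
Cenpt: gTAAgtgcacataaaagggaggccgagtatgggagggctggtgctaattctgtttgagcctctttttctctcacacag
Mamdc4: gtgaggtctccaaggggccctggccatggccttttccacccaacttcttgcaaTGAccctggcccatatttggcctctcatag
Pced1a: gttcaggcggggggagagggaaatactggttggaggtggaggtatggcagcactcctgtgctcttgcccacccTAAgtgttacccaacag
Rps18: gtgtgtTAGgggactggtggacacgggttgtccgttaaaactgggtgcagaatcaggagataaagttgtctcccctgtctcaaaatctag
Rps2: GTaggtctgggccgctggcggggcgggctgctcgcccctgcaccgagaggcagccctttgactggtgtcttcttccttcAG

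The widest changes in choroid plexus were in Cenpt and Hmgn2. Cenpt, a DNA-binding protein of the inner kinetochore, kept its last intron of 78 bases in 7.6%, 20.7% and 25.9% of wild-type transcripts and in 84.4% and 66.2% of 480/480 transcripts. The groups were well separated and the mean rose from 18.1% ± 9.43 (n = 3) to 75.3% ± 12.9 (n = 2). Hmgn2, a nucleosome-binding protein, was at 7.7%, 50.1% and 19.2% in wild type and at 73.7% and 85.3% in 480/480 (286 bases, chr4:133966480-133966765, minus strand). Its mean rose from 25.7% ± 21.9 to 79.5% ± 8.20 with no overlap. Zfp384, a zinc finger transcription factor, rose from 74.7% ± 14 to 100% ± 0.

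Mamdc4, the apical endosomal protein endotubin, was at 41.6%, 65.5% and 70.4% in wild type and at 100% in both 480/480 libraries, a rise in the mean from 59.2% ± 15.4 to 100% ± 0. Kcnt1, a sodium-activated potassium channel, rose from 60.4% ± 34.6 to 100% ± 0, and its wild-type library 3 was also at 100%. Vps11, a core subunit of the tethering complexes that fuse endosomes and lysosomes, rose from 76.0% ± 14.9 to 100% ± 0. Pced1a, which encodes a PC-esterase domain protein, had a small spread, with 17.3%, 17.7% and 9.7% in wild type and 33.1% and 40.1% in 480/480. Its groups did not overlap and its mean rose from 14.9% ± 4.51 to 36.6% ± 4.95.

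Rps2 and Rps18, proteins of the small ribosomal subunit, and H2-K1, a class I major histocompatibility chain, had low retention that rose by about the authors' minimum. Rps2 rose from 5.93% ± 6.44 to 18.9% ± 7.14, Rps18 from 8.1% ± 5 to 20.2% ± 5.02 and H2-K1 from 10.8% ± 7.40 to 21.8% ± 5.37, and only H2-K1 overlapped. Without 480/480 library 2 the changes of Rps2 and Rps18 were 7.87 and 8.50 points, and without library 1 that of H2-K1 was 7.17. These genes have near-identical pseudogenes or family copies, and how reads shared with them were placed is not stated in the labels or headers, so the values are uncertain.

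The choroid plexus introns that fell had wild-type means from 84.3% to 100%, though single libraries lay lower. Wild-type library 3 was at 57.7% in Rcbtb2 and at 67.6% in Catsperg1. F630028O10Rik, a noncoding gene, was at 100%, 53% and 100% in wild type and at 55.6% and 27.3% in 480/480 (524 bases, chrX:96240514-96241037, plus strand). Its groups overlapped, and its mean fell from 84.3% ± 27.1 to 41.5% ± 20.01. Plekhg2 was at 86.2%, 90.3% and 93.8% in wild type and at 70% and 66.5% in 480/480 (383 bases, chr7:28370495-28370877, minus strand). Its spread was small and the mean fell from 90.1% ± 3.80 to 68.3% ± 2.47 with no overlap. Catsperg1, an accessory subunit of the sperm calcium channel, fell from 89.2% ± 18.7 to 58.4% ± 0.354, also with no overlap.

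For the last 4 introns that fell, the change moved by more than 1.5 times with either 480/480 library left out. Rcbtb2, at an intron of the 5′ UTR, fell from 85.9% ± 24.4 to 59.6% ± 31.0, and its change of 26.3 points was 4.4 without 480/480 library 1 and 48.2 without library 2. Sec11c, a catalytic subunit of the signal peptidase, fell from 100% ± 0 to 76.2% ± 20.5, and its change of 23.8 points was 9.30 without library 1 and 38.3 without library 2. Rev1, a translesion DNA polymerase, fell from 95.5% ± 7.74 to 77.8% ± 17.7, and its change of 17.7 points was 5.23 without library 2 and 30.2 without library 1. Fam133b fell from 95.7% ± 7.51 to 81.8% ± 13.3, and its change of 13.9 points was 4.47 without library 2 and 23.3 without library 1.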

How the data were processed

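RNA-seq of TA, myotubes and choroid plexus was used as the authors' splicing tables. Libraries were strand-specific, from rRNA-depleted total RNA, per the labels' protocols. FastQC, STAR and mm10 are named, without versions, in the submitters' processing notes; the splicing caller and its strand setting are not given in the sources used here. Per the file headers, the authors' limits were an average of 5 reads, an FDR of at most 0.05 and a change of at least 0.1. Retention is deposited as lists of fractions, one per library, which were turned into percentages; the p-value and FDR were taken as deposited; the deposited difference (a score, wild type minus expansion) was recomputed as expansion minus wild type, within 0.05 points. All 64 gene IDs matched the reference and 2 symbols were updated. Introns are the bases between the flanking exons, annotated with GENCODE M21, whose transcript sequences supplied the intron sequences. Every member is named; values in every library are given for the 6 largest changes of each comparison, for introns in 2 tables, and for separated groups with SDs under 5 points. Members and lists were chosen with earlier results of these data known. The calculation was tested on simulated data. Values were computed with Python 3.11.15 and with NumPy 2.4.6; SciPy 1.17.1 gave rank correlations that are not printed, and figures were drawn with matplotlib 3.10.9.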

Additional observations from a re-analysis of the deposited data

Results flagged for a closer look

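Retention of the Trim28 intron changed in opposite directions in 2 tissues. It changed by -11.1 points in 480/480 TA, where every expansion library lay below every wild-type library, and by 12.1 points in 480/480 choroid plexus, where every expansion library lay above every wild-type library. The difference between the tissues was not tested. Groups of 3 or 2 libraries are too small for the check of a library that stands apart.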

How the results depend on the processing

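No paired analysis was possible because library values are listed without a replicate number and the groups compared come from different mice. Of 484 alternative values of single introns none changed direction. The introns were listed for a difference in these same values, so nothing is read from their keeping its direction. Of the 72 alternative values that used medians in place of means, 2 moved by at least the larger SD of the groups compared. The other 412 left out 1 library. That cannot move a change by as much as this SD, so nothing is read from their staying within it. With an FDR of 0.01 or less, the introns that rose and fell numbered 7 and 4 in TA, where 10 were separated, and 8 and 3 in choroid plexus, and 5 rose in +/480 myotubes. With a change of 20 points or more, 11 rose in TA. Without introns at 0% or 100% in every library of a group, 5 rose in +/480 myotubes and 7 in choroid plexus. The cause was not tested, but each setting keeps fewer introns by its construction. Leaving out 1 library left 56 events at 10 points or more whichever library was left out, while 16 (8 in TA and 8 in choroid plexus) fell under 10. Retained introns of 8 genes were in 2 tables when matched by gene only. Depth per intron is unknown, so no counting interval is given.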
